A study of Mus musculus with 4 samples.

Results

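The 4 receptor tyrosine kinase genes of the EGF receptor family (Egfr, Erbb2, Erbb3 and Erbb4) and 6 genes for their ligands (Areg, Ereg, Hbegf, Tgfa, Btc and Egf) were examined in hair follicle stem cells after CSA. Members were all rows that the platform annotation gave to 1 of these 10 genes alone. They came to 9 rows among 28815, 1 for each of the 4 receptors and of 5 ligands. No row named Areg, which was not analysed here, and 1 further row that the annotation gave to Erbb2 together with another gene was left out.

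CSA is the labels' abbreviation, which in work on calcineurin stands for cyclosporine A, an inhibitor of that phosphatase. The study dealt with calcineurin and Nfatc1 in the resting state of skin stem cells and in their hormonal signals. The CSA group held 2 arrays of RNA from male CD-1 mice given 100 mg/kg CSA into the peritoneum over 3 days. The vehicle group held 2 arrays from male CD-1 mice given vehicle the same way. All were taken at postnatal day 56, when the hair cycle rests (the second telogen), and the cells were sorted from skin for CD34 together with alpha6 integrin, which marks the bulge, the follicle's stem cell niche. The submitters call the replicates biological, and the number of mice behind each is not stated.

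Receptors of this family sit in the cell membrane, bind a ligand outside the cell and pair with one another, which switches on their kinases and, inside the cell, the RAS-ERK and PI3K-AKT pathways. The ligands are made as membrane proteins and are freed by proteases such as Adam17. Egf and Tgfa bind Egfr, while Hbegf, Btc and Ereg bind Egfr and Erbb4. Erbb2 has no known ligand of its own and acts as a partner, and Erbb3 has a kinase of little activity and signals in pairs. In mouse skin the pathway shapes the follicle and its cycle, and mice of the waved strains, whose lesions lie in Tgfa or Egfr, have a wavy coat.

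Each value is a deposited log value, taken as log2, of 1 gene on 1 array relative to a baseline that the authors set for that row and did not state in the labels or the table. Values of different genes therefore cannot be ranked against each other, and whether a gene was above background could not be checked. The array medians over all rows lay between -0.02 and 0.06 and their standard deviations between 0.37 and 0.47. The 4 arrays were weakly related over rows (Pearson r between 0.02 and 0.17) except CSA replicate 2 and vehicle replicate 2, with r = 0.52. The CSA arrays had r = 0.06 with each other and the vehicle arrays 0.17. Values centred by row leave out the abundance differences between genes, so these r cannot be compared with those of uncentred values. Cd34, whose product was used for the sort, was above its baseline on all arrays, at 1.75 and 3.60 in CSA samples against 4.05 and 4.25 in vehicle samples. The gene of the other sort marker, Itga6, was near or below its baseline, at -0.70 and -0.53 in CSA samples against -0.9995 and 0.08 in vehicle samples.

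Egfr was the member whose groups stood farthest apart, and its promoter is shown with that of Btc, the member with the next largest difference. Both are the 250 bases before the annotated start in RefSeq (GRCm38.p6), read 5′ to 3′ on the gene's strand. The study concerns calcineurin, which controls NFAT factors, so the windows were searched on both strands for the letters GGAAA, the core that NFAT factors bind. They were also searched for GGGCGG, the GC box of Sp1 factors, and capitals mark matches to either motif. Egfr lies at chr11:16751953-16752202 on the plus strand and Btc at chr5:91402995-91403244 on the minus strand.
Egfr: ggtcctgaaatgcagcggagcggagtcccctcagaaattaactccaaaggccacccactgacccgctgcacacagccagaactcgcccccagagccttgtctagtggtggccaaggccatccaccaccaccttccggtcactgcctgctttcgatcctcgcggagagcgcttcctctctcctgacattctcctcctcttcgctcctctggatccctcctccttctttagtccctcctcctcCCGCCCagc
Btc: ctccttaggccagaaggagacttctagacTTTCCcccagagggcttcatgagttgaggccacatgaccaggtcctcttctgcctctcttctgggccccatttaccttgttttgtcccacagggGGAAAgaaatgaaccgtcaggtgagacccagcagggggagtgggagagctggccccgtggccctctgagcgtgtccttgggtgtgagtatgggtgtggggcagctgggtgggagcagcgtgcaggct

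The Egfr window held no match to GGAAA and 1 GC box, whose outer edge lay 9 bases before the start. The Btc window held 2 matches to GGAAA and no GC box. Among 32851 promoter windows of the same length 55.6% held GGAAA and 32.7% held GGGCGG, so that each match is common. Windows were listed for 7 of the 10 genes, 8 windows in all. GGAAA occurred once each in those of Erbb4 and Areg and in both of Egf, and did not occur in those of Erbb2 and Tgfa. GGGCGG had 2 matches in the window of Tgfa and 1 in that of Areg, and none in those of Erbb2, Erbb4 and Egf. Searches were also made for TATAAA, the TATA box, and TGACTCA, the AP-1 site, held by 12.4% and 4.46% of all windows. TATAAA had 1 match, in the window of Areg, and TGACTCA had none in any member window. A match describes the letters only, and no binding was measured.

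Egfr, the receptor that Egf and Tgfa bind, was lower in CSA, at 0.06 and 0.07 on the CSA arrays against 0.56 and 0.61 on the vehicle arrays. The groups did not overlap, and the gaps between the arrays of 1 group, 0.01 in CSA and 0.06 in vehicle, were small beside the gap between the groups. The difference was -0.52 ± 0.13 (CSA minus vehicle; every ± below gives limma's moderated standard error, with 2 arrays in each group), with a 95% interval from -0.89 to -0.14. On the log2 scale this is 0.70 times the vehicle level, and in sorted cells fewer cells that make a transcript cannot be told apart from less of it per cell.

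The difference of Egfr did not pass the test over all rows (limma, Benjamini-Hochberg adjusted p = 1.00), nor did that of any other member, and 0% of all 28815 rows passed, by limma or by an ordinary test of each row. Its limma unadjusted p was 0.0191, the only one under 0.05 among the 9 member rows, and 1.13% of all rows had such a p with lower values in CSA, while 1.80% had one with higher values. The ordinary test, which lacks limma's moderation, gave Egfr an unadjusted p of 0.0034. Its rank was 290 of 28815 by the p of limma and 63 by that of the ordinary test. With 2 arrays per group the exact permutation test cannot give a two-sided p under 0.333.

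Among all rows, Egfr had a difference larger than most and a spread smaller than most. Its absolute difference was larger than that of 89.0% of rows, and its pooled SD within groups, 0.03, was larger than that of 3.43% of rows. The difference lay between -0.55 and -0.49 whichever array was left out, with limma unadjusted p-values between 0.0501 and 0.109 in those fits of 3 arrays.

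**Figure D1:**
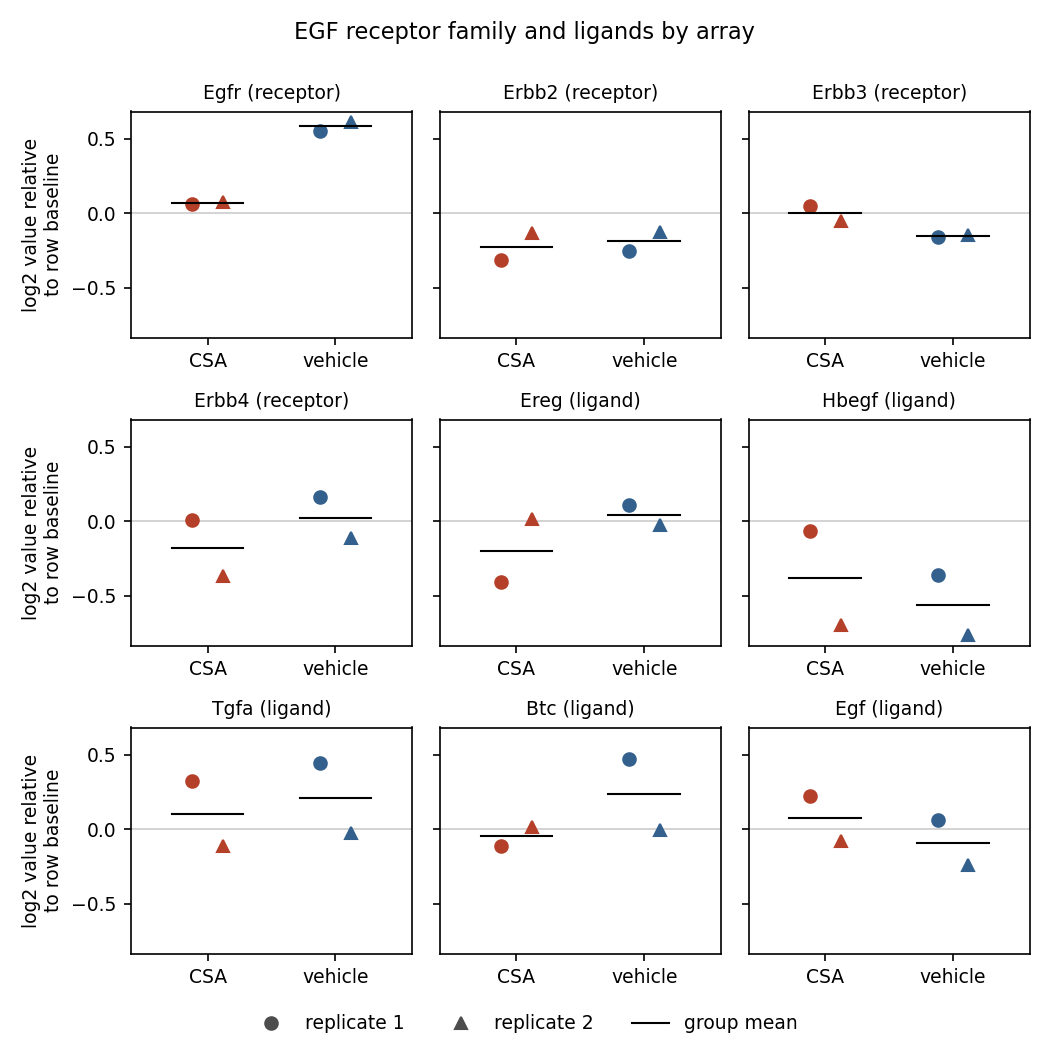
Log2 values relative to each row's baseline for the 9 member rows, with CSA arrays left in red and vehicle arrays right in blue, a circle for replicate 1, a triangle for replicate 2 and a line for the group mean. Egfr lies at 0.06 and 0.07 in CSA samples against 0.56 and 0.61 in vehicle samples, while the groups overlap in all other panels except Erbb3.

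**Figure D2:**
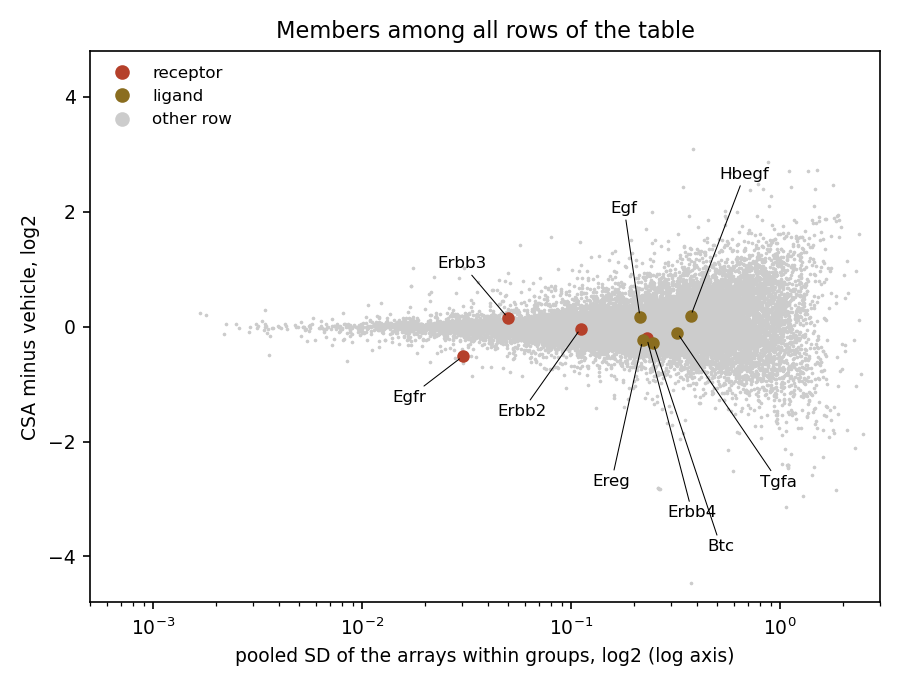
Each grey point is 1 of 28815 rows, with the pooled SD of its arrays within groups on a log axis and its CSA minus vehicle difference in log2 on the vertical axis; receptors are red and ligands ochre. Egfr lies at an SD of 0.03 and a difference of -0.52, and other rows of like spread lie lower.

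Erbb3, the partner with the weak kinase, was the other member whose groups did not overlap. It was at 0.05 and -0.05 in CSA samples against -0.16 and -0.14 in vehicle samples. CSA stood higher by 0.15 ± 0.14, an amount larger than that of 50.7% of all rows, with a 95% interval from -0.24 to 0.53. Groups apart with CSA lower, as for Egfr, were found in 15.2% of all rows, and groups apart with CSA higher, as for Erbb3, in 11.4%. The count of 2 of 9 members is thus near that background.

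Erbb2, the receptor without a ligand, was at -0.31 and -0.13 in CSA samples against -0.25 and -0.12 in vehicle samples. In both groups replicate 1 was the lower array, and the groups overlapped. The difference was -0.04 ± 0.15 with a 95% interval from -0.47 to 0.40, and it turned to 0.05 without CSA replicate 1 and, when vehicle replicate 2 was left out, to 0.03.

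Erbb4, which binds neuregulins as well as Hbegf, Btc and Ereg, was at 0.01 and -0.36 in CSA samples against 0.16 and -0.11 in vehicle samples. Replicate 1 was the higher array of each group, and the groups overlapped. The difference of -0.20 ± 0.21 (95% interval -0.80 to 0.39) was -0.02 without CSA replicate 2. Of the 4 receptors 3 had a lower mean in CSA and 1 a higher one, with a median difference of -0.12, against -0.04 over all rows.

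**Figure D3:**
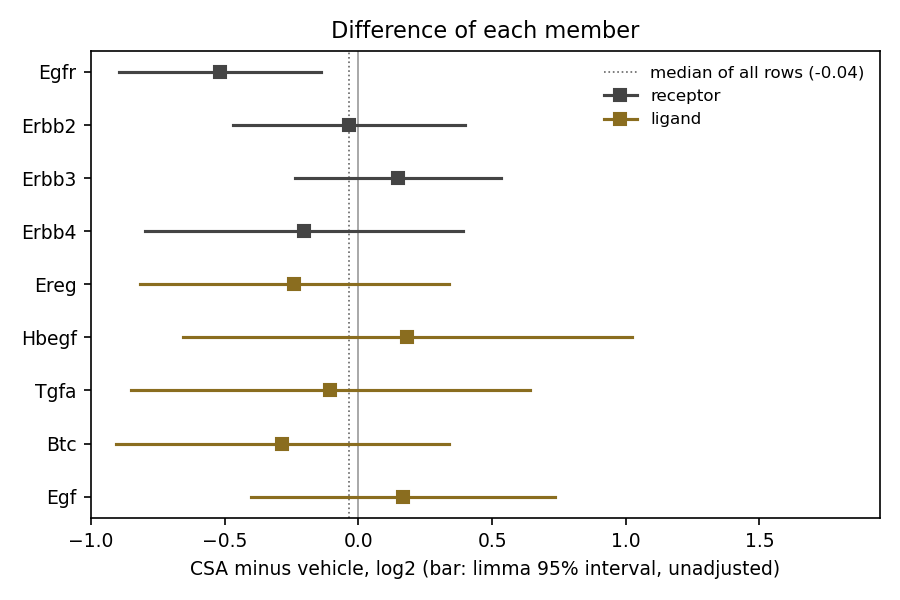
CSA minus vehicle difference of each member row in log2 (square) with limma's 95% interval (bar, not adjusted for the number of rows), receptors in grey and ligands in ochre; the dotted line is the median of all rows. The interval of Egfr, from -0.89 to -0.14, lies below 0, and the other 8 intervals include 0.

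Among the ligands, Btc (betacellulin) was at -0.11 and 0.02 in CSA samples against 0.48 and -0.0009 in vehicle samples. Vehicle replicate 1 stood alone above the other arrays, which lay close together. The difference was -0.28 ± 0.22 (95% interval -0.91 to 0.34) with all arrays and -0.05 without vehicle replicate 1.

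Ereg (epiregulin) was at -0.41 and 0.01 in CSA samples against 0.11 and -0.02 in vehicle samples. Here CSA replicate 1 stood below the other arrays. The difference of -0.24 ± 0.21 (95% interval -0.82 to 0.34) was -0.03 without that array. In the RefSeq gene order of mouse chromosome 5 Epgn, Ereg, Areg and Btc follow one another with no protein-coding gene between them. Epgn (epigen), a ligand of Egfr outside the 10 genes, was named after its values were seen. It was at 0.20 and -1.78 in CSA samples against -0.20 and -0.58 in vehicle samples, and differed by -0.41 ± 0.74. All 3 measured genes of this cluster had a lower mean in CSA, as had 16679 of all 28815 rows. In each of the 3 genes the groups overlapped.

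Tgfa, a ligand that keratinocytes make for their own Egfr, was at 0.33 and -0.11 in CSA samples against 0.45 and -0.02 in vehicle samples. The arrays numbered replicate 1 were the higher ones in both groups. The difference was -0.11 ± 0.27 (95% interval -0.85 to 0.64) and turned to 0.12 without CSA replicate 2 and to 0.13 without vehicle replicate 1.

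Hbegf, the heparin-binding ligand known from keratinocyte migration in wounds, was at -0.07 and -0.69 in CSA samples against -0.36 and -0.76 in vehicle samples. It was below its baseline on all arrays, and again replicate 1 was higher in both groups. The difference of 0.18 ± 0.30 (95% interval -0.66 to 1.02) turned to -0.13 without CSA replicate 1 and to -0.02 without vehicle replicate 2.

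Egf itself was at 0.23 and -0.08 in CSA samples against 0.06 and -0.24 in vehicle samples. Replicate 1 was once more the higher array of each group, and the groups overlapped. The difference was 0.17 ± 0.20 (95% interval -0.40 to 0.74) and 0.02 without CSA replicate 1. Of the 5 ligands 2 had a higher and 3 a lower mean in CSA, with a median of -0.11, and over the 9 members 3 were higher and 6 lower. Over all rows 42.1% had a higher mean in CSA. The gaps between arrays of 1 group ranged up to 0.63 for Hbegf in CSA and 0.48 for Btc in vehicle, and the intervals of all 5 ligands include 0, the narrowest being that of Egf.

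**Figure D4:**
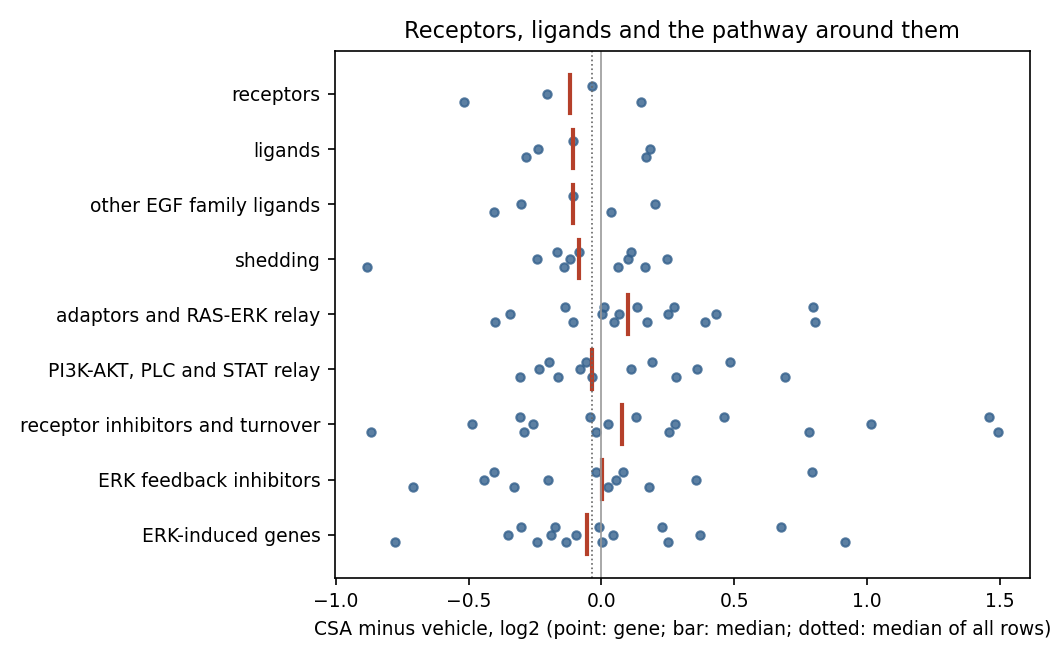
CSA minus vehicle difference in log2 of each gene of the receptors, the ligands and 7 lists of pathway genes (points, 1 row per gene), with each list's median (red bar) and the median of all rows (dotted). List medians lie between -0.12 for the receptors and 0.10 for the adaptors and RAS-ERK relay, and single genes reach from -0.88 for Adam17 to 1.49 for Cblb.

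The genes around the receptors were read out from 7 lists of 97 genes, of which 89 had a row of their own. A gene with several rows was given by the row of highest mean, and since each row has its own baseline that choice does not pick the better measured row. None of the genes passed over all rows (limma adjusted p = 1.00 for each), and the median difference was 0.01. A limma unadjusted p under 0.05 was found for 3 of the 89 higher in CSA, against 1.80% of all rows, and for 0 lower in CSA, against 1.13%. Over every row of these genes, 95 in all, 3 were higher and 1 was lower with such a p, the lower one a second row of Etv5. The groups did not overlap for 24 of the 89, 12 higher in CSA (13.5%) and 12 lower (13.5%), near the shares over all rows.

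Of the 5 ligands outside the 10 genes 2 had a higher and 3 a lower mean in CSA, and the median of -0.11 was 0.09 without CSA replicate 2, -0.02 without vehicle replicate 1 and -0.19 without vehicle replicate 2. Nrg3, a neuregulin that Erbb4 binds, was at -0.15 and -0.23 in CSA samples against 0.22 and 0.01 in vehicle samples, and differed by -0.30 ± 0.16. Nrg1, the neuregulin of Erbb3 and Erbb4, differed by 0.20 ± 0.26, and Nrg2 by -0.11 ± 0.15.

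Among the 11 genes of ligand shedding 5 had a higher and 6 a lower mean in CSA, and the median of -0.08 was 0.07 without CSA replicate 2, -0.01 without vehicle replicate 1, and -0.17 and -0.16 without CSA replicate 1 and vehicle replicate 2. Adam17, the protease that frees Tgfa, Areg, Ereg and Hbegf, was at -1.20 and -0.27 in CSA samples against -0.25 and 0.55 in vehicle samples. The CSA arrays were the lower ones, but CSA replicate 2 and vehicle replicate 1 nearly met. Its difference was -0.88 ± 0.46, that of Adam15 -0.24 ± 0.14 and that of Adam12 -0.17 ± 0.17.

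Of the 16 measured adaptor and RAS-ERK genes 12 had a higher mean in CSA and 4 a lower one, with a median of 0.10. Without CSA replicate 1 (median 0.06) or vehicle replicate 1 (0.03) the split was 8 and 8, and without vehicle replicate 2 the median was 0.16. Gab1, a docking protein that links Egfr to PI3K, went the other way and was at -0.26 and -0.41 in CSA samples against 0.09 and 0.04 in vehicle samples. It differed by -0.40 ± 0.14, while the kinase gene Braf was higher by 0.80 ± 0.30 and Map2k1, which encodes the kinase that activates ERK, by 0.43 ± 0.25. Of the 13 genes of the PI3K-AKT, PLC and STAT relay 6 were higher and 7 lower, and the median of -0.03 was above 0 whichever array was left out (0.02 to 0.19) and 0.04 over every row of these genes. Akt1 was at 0.06 and 0.09 in CSA samples against -0.33 and -0.25 in vehicle samples, a difference of 0.36 ± 0.14. Pik3cb, a catalytic subunit of PI3K, differed by 0.69 ± 0.33 and Plcg1, the phospholipase that Egfr phosphorylates, by -0.24 ± 0.20.

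Of the 16 genes that restrain the receptors or mark them for turnover 9 were higher and 7 lower in CSA (median 0.08, and 0.13 over every row of these genes). The median was 0.02 without CSA replicate 1, 0.13 without CSA replicate 2, -0.03 without vehicle replicate 1 and 0.29 without vehicle replicate 2. Socs4, whose product dampens EGFR signalling in human cells, was at 0.26 and 0.01 in CSA samples against -0.82 and -0.47 in vehicle samples. The difference was 0.78 ± 0.20 (limma unadjusted p = 0.0195). Cblb, a ubiquitin ligase that tags activated receptors, was at 0.87 and -0.25 in CSA samples against -1.26 and -1.11 in vehicle samples, and stood higher by 1.49 ± 0.42 (limma unadjusted p = 0.0255). Both CSA arrays lay above both vehicle arrays for these genes and for Ptpn1, a phosphatase that acts on Egfr (1.46 ± 0.67). Errfi1, the direct Egfr inhibitor also called Mig6, was named after its values were seen. It was at 2.53 and -0.83 in CSA samples against 0.06 and -0.40 in vehicle samples, with 1 CSA array above both vehicle arrays and 1 below both.

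Among the 12 ERK feedback inhibitors 6 were higher and 6 lower, with a median of 0.002. Without CSA replicate 1 the split was 4 and 8 (median -0.11), and without vehicle replicate 2 it was 5 and 7 (median -0.16). Over every row of these genes it was 6 and 8 (median -0.04). Spry4, which dampens RAS signalling, was at -0.04 and -0.15 in CSA samples against 0.26 and 0.21 in vehicle samples (difference -0.33 ± 0.14). Dusp6, the phosphatase of ERK, was at -0.87 and -0.28 in CSA samples against 0.36 and -0.09 in vehicle samples (-0.71 ± 0.30). In both genes the CSA arrays were the lower ones, while Spred2, a further inhibitor of the pathway, was higher in CSA by 0.35 ± 0.16 on the row used and lower on its other row (-0.53 ± 0.22).

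Of 16 genes that ERK signalling induces 7 were higher and 9 lower in CSA, with a median of -0.05. The split was 4 and 12 without CSA replicate 1 (median -0.14) and 8 and 8 without CSA replicate 2 (-0.01) or vehicle replicate 1 (-0.02), and over every row of these genes it was 7 and 11 (-0.10). Ier2, an immediate early gene, was at 0.15 and -0.32 in CSA samples against -0.88 and -1.12 in vehicle samples, and differed by 0.92 ± 0.23 (limma unadjusted p = 0.0177). Egr2, an immediate early transcription factor, differed by -0.78 ± 0.57 with overlapping groups. Etv1, a factor of the ETS family, differed by -0.18 ± 0.13 on the row used and by -0.10 ± 0.14 on its other row. Both CSA arrays lay below both vehicle arrays on each Etv1 row, as in 15.2% of all rows.

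Etv5, another ETS factor that ERK signalling induces, had 2 rows whose differences were unlike in size, and it was named after its values were seen. The row used in the list was at -0.46 and -0.04 in CSA samples against 0.15 and -0.16 in vehicle samples, a difference of -0.24 ± 0.23 with overlapping groups. The other row was at -1.01 and -1.32 in CSA samples against 0.15 and 0.78 in vehicle samples. Both CSA arrays lay below both vehicle arrays there, with a difference of -1.63 ± 0.28 (limma unadjusted p = 0.00499, adjusted p = 1.00). Which of the rows measures the transcript better cannot be read from centred values.

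Markers of the cells the sort could hold moved between arrays as well, and their part in these results was not tested. Beside the marker counts below, 16679 of all 28815 rows had a lower mean in CSA, with a median difference of -0.04. The 15 bulge markers were lower in CSA for 10, with medians of 0.35 and 0.91 in CSA samples against 0.60 and 0.87 in vehicle samples. The matrix gene Postn differed by -0.79 ± 0.16 and Nfib, which encodes a nuclear factor I protein of these stem cells, by -0.46 ± 0.16. The list's median difference of -0.26 shrank to 0.02 when CSA replicate 1 was left out and to -0.02 when vehicle replicate 2 was, and it was -0.48 and -0.55 with CSA replicate 2 and vehicle replicate 1 left out in turn.

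The 17 measured markers of differentiated epidermis, which makes several Egfr ligands, had medians of -0.18 and -0.21 in CSA samples against 0.52 and -0.32 in vehicle samples. Of these 13 were lower in CSA. The cornified envelope gene Ivl differed by -0.81 ± 0.27, and Calml3, a calmodulin-like gene of epithelia, by -1.42 ± 0.53. By the list's median vehicle replicate 1 was the high array. Without it the median difference of -0.77 was 0.01, while without vehicle replicate 2 it was -1.39. Calml3 was alike on the vehicle arrays, at 2.34 and 2.40, against 0.24 and 1.67 in CSA samples. On vehicle replicate 1 Btc was at 0.48 and Egfr at 0.56, against -0.0009 and 0.61 on vehicle replicate 2. Whether either gene follows these markers was not tested.

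All 11 fibroblast and 12 endothelial markers had a lower mean in CSA (medians -0.17 and -0.15), with Col6a1 at -0.74 ± 0.27 and Col6a2 at -0.32 ± 0.16 among the first and Kdr at -0.32 ± 0.14 and Egfl7 at -0.39 ± 0.26 among the second. The fibroblast medians on the arrays were 0.03 and -0.16 in CSA samples against 0.11 and -0.003 in vehicle samples, and the endothelial ones 0.0008 and -0.10 in CSA samples against 0.24 and -0.01 in vehicle samples. Of 11 sebaceous markers 8 were lower (median -0.17), with Fasn at -0.46 ± 0.24 and Scd1 at 0.90 ± 0.51, of 10 melanocyte markers 7 (median -0.03), with Sox10 at -0.23 ± 0.22 and Dct at 0.17 ± 0.20, and of 12 immune markers 8 (median -0.14), with Cd3g at 0.79 ± 0.27 and Cd207 at -0.31 ± 0.21. These counts moved with vehicle replicate 1. Without it 7 of the 11 fibroblast markers (median -0.11) and 8 of the 12 endothelial ones (-0.03) were lower in CSA. The sebaceous median turned to 0.08, with 5 of 11 lower, the immune median to 0.13, with 4 of 12 lower, and the melanocyte median to 0.001, with 5 of 10 lower. Without CSA replicate 2 the medians were -0.08 for fibroblast, -0.07 for endothelial, -0.05 for immune, 0.01 for melanocyte and -0.15 for sebaceous markers. Without CSA replicate 1 they were -0.31, -0.21, -0.15, -0.13 and -0.22 in that order. Without vehicle replicate 2 they were -0.30, -0.30, -0.24, -0.06 and -0.26. Without CSA replicate 1 and vehicle replicate 2 in turn, 11 and 10 fibroblast markers and 11 and 12 endothelial ones were lower. The melanocyte factor gene Mitf, named after its values were seen, differed by -0.28 ± 0.52 on the row used and by -0.64 ± 0.15 on its other row. None of these markers passed over all rows (limma adjusted p = 1.00 for each).

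**Figure D5:**
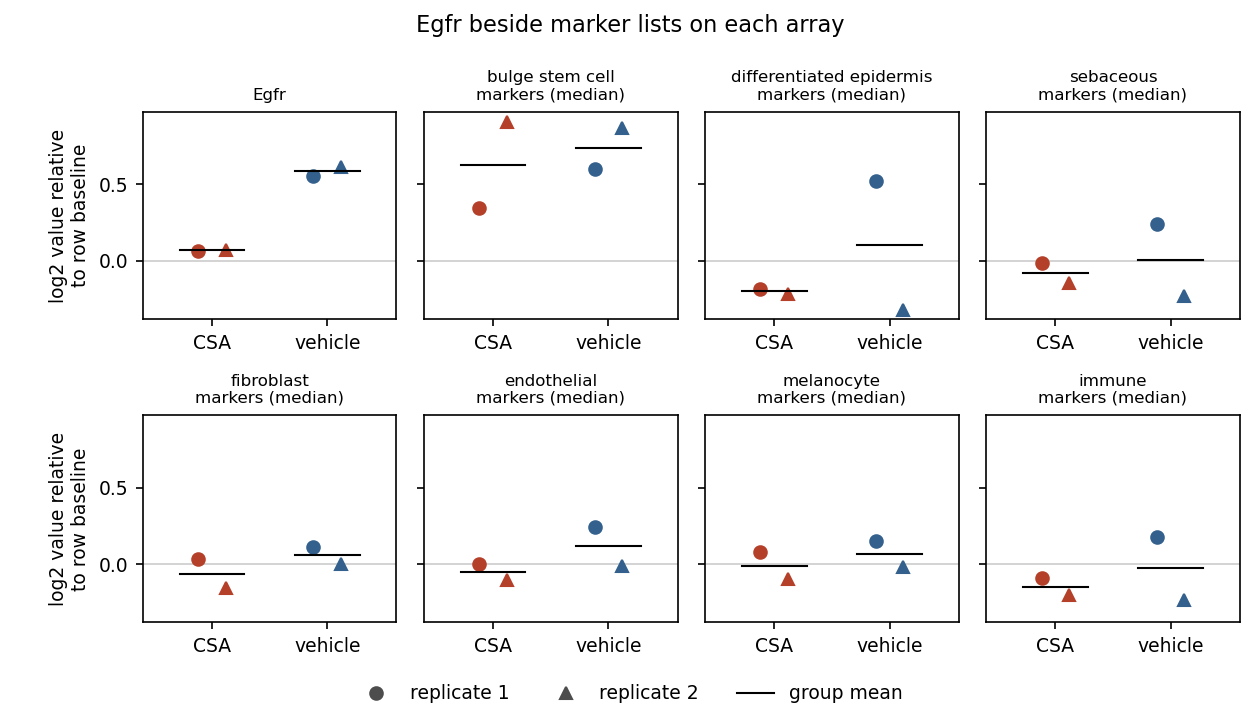
Egfr and the median of each marker list on every array, in log2 relative to the row baselines, with CSA left in red, vehicle right in blue, a circle for replicate 1, a triangle for replicate 2 and a line for the group mean. Vehicle replicate 1 is high for differentiated epidermis, at 0.52 against -0.32 on the other vehicle array. Egfr is at 0.56 and 0.61 on the vehicle arrays.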

How the data were processed

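RNA of 4 sorted samples was hybridised to one-colour arrays. According to the labels' protocols, 20 ng of total RNA went through 1 round of amplification and became biotinylated cDNA. The deposited values are on a log scale taken as log2, centred by row on a baseline. The software and the normalization of the arrays are not given in the sources used; build mm8 is named in the submitters' processing notes. Rows were named through the platform annotation: 21780 of 28815 named 1 gene, 1605 several and 5430 none.

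limma 3.58.1 in R 4.3.3 (lmFit, eBayes without trend, prior degrees of freedom 1.88, no block) was fitted to every row as deposited, two-sided, with Benjamini-Hochberg adjustment over 28815 rows and a threshold of 0.05. The code was tested on simulated data. Groups and replicate numbers came from the titles. The arrays' number limits the precision.

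The members, gene lists and tests were chosen with earlier results of these data known. Named were all members, from each pathway list the 3 genes and from each marker list the 2 with the largest absolute moderated t, and Cd34 and Itga6; exceptions are marked. Other genes with several rows were given by the row of highest mean, which on centred values is no measure of abundance; counts over every row were added after seeing the data. Alternatives changed the normalization, the variance model, the rows and the arrays used. Promoter sequences came from RefSeq (GRCm38.p6), whose build differs from that of the notes.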

Additional observations from a re-analysis of the deposited data

How the results depend on the processing

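No member and no other row passed at an adjusted p under 0.05 in limma or the ordinary test under any of the 13 alternatives. At an unadjusted p under 0.05 limma gave 845 rows with all arrays and the ordinary test 801, and 687 to 2146 without 1 array. The count of members higher in CSA was 3 in every setting with all arrays and all 9 member rows, and 3 to 4 without 1 array. With the rows of lowest mean left out (below the 25th percentile) 4 member rows stayed, and the counts were 1 higher and 1 whose groups did not overlap, by construction. Without 1 array 4 to 7 members did not overlap, against 2, since 1 array against 2 overlaps less often. The members' median of -0.11 lay between -0.19 and -0.08 in the settings with all arrays and between -0.31 and -0.02 without 1 array. Signs turned for 3 members: Erbb2 ranged from -0.13 to 0.054 over the fits without 1 array (0.03 when vehicle replicate 2 was left out), Hbegf from -0.13 to 0.50 (-0.02 when vehicle replicate 2 was left out) and Tgfa from -0.34 to 0.13 (0.12 when CSA replicate 2 was left out). The cause was not tested. Egfr stayed between -0.55 and -0.49 in all 13 (limma unadjusted p 0.0117 to 0.109, ordinary test 0.0034; lowest adjusted p 0.675).

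CSA and vehicle arrays share replicate numbers that the labels do not call a pairing, and same-numbered arrays deviated from their group means with a correlation of 0.22 over rows. With the replicate block 1366 rows had a limma unadjusted p under 0.05 and 0 passed after adjustment, and Egfr kept its difference of -0.52 (unadjusted p = 0.0279, adjusted p = 0.868). No scanner values were used, so signal over background, background correction and a filter on dim probes were not tried.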
